A study of Mus musculus with 12 samples.

Results

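The cortical arrays of an expression study of amitriptyline (AMI) in aged 3×TgAD mice were 6 of its 12, and all 6 were used here because their labels name the cortex. There were 3 arrays from AMI-treated and 3 from vehicle-treated animals, 1 array per sample, and the other 6 arrays came from the hippocampus. 3×TgAD mice are a model of Alzheimer's disease in which mutant human amyloid precursor protein and mutant human tau are expressed from neuronal transgenes on a background of mutant presenilin 1. Both groups carried all of these alleles and both received the cell division label BrdU, so that the controls were not healthy animals and no cortex without the transgenes was measured. All animals were males of 18 months. The AMI group had received 100 µg of AMI-hydrochloride per g of body weight in the drinking water for 4 months from the age of 14 months, and the vehicle group had received plain water. The question was which cortical transcripts differed after this treatment.

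AMI is a tricyclic antidepressant. It blocks the reuptake transporters of serotonin and noradrenaline, antagonizes histamine, muscarinic, serotonin and α-adrenergic receptors, and, as a cationic amphiphilic molecule, accumulates in lysosomes, where it displaces acid sphingomyelinase from its membrane. The cortex is built of layered glutamatergic neurons, GABAergic interneurons and glia, so a signal from whole tissue sums the transcripts of all of these cells. In such samples fewer cells of one type and less RNA per cell cannot be told apart.

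Each array carried 25697 probes of 50 bases that read labelled RNA copied from the poly(A) tail. A probe was tested where its detection p was 0.05 or less on 3 or more of the cortical arrays, which left 12944 probes of 9802 genes. All values below are log2 signals scaled so that the mean of an array is 0, and a difference is AMI minus vehicle on this log2 scale. Of the 25697 probes, 12588 to 13046 were detected per array, at a median signal 2.94 to 4.45 times that of undetected probes. The arrays correlated with r of 0.979 to 0.992 within groups and 0.981 to 0.991 between them, so that the groups were no more alike within than between. On the first principal component, which held 43.3% of the variance, vehicle replicate 3 (-0.62) lay with AMI replicates 1 (-0.17) and 3 (-0.35), and AMI replicate 2 (0.26) lay with vehicle replicates 1 (0.38) and 2 (0.51). Among defining markers, Slc17a7 of excitatory neurons, Gad1 of interneurons, Gfap of astrocytes, Mbp of oligodendrocytes, Aif1 of microglia and Cldn5 of endothelium were detected on all 6 arrays, whereas the probe for the neuronal gene Snap25 was detected on 0. Choroid plexus varied most, with the transthyretin gene Ttr at 1.54, 5.57 and 7.07 after AMI and 6.5, 3.30 and 5.39 after vehicle.

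No cortical transcript passed an adjusted p under 0.05 in limma (0 of 12944 probes, 0%; smallest adjusted p 0.153). Before adjustment, p was 0.05 or less for 813 probes, of which 564 were higher after AMI (4.36%) and 249 lower (1.92%). The 3 AMI arrays lay wholly above the 3 vehicle arrays for 1048 probes (8.10%) and wholly below them for 535 (4.13%). The excess of higher probes depended on the scaling. After quantile normalization 739 probes lay wholly above and 865 wholly below, with 408 and 448 by p, whereas after median centring 891 lay above and 216 below, with 393 and 40 by p. It also followed signal strength, since with z normalization the brightest of 5 equal classes of probes had a median difference of -0.04 and the other classes had medians of 0.03 to 0.05. By the cutoffs that the study set (a false discovery rate under 0.3, p at most 0.05 and an absolute z ratio of at least 1.5), 3 of 9802 genes passed (0.0306%), namely Rps15a, Atp8a1 and Ccng2. Without vehicle replicate 3, the array that stood apart from its group, 1512 genes passed them and still 0 probes had an adjusted p under 0.05 in limma. With 3 arrays a side, the smallest p an exact two-sided permutation test allows is 0.1.

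The stretches of RNA read by leading probes, by the second probe of 6330503K22Rik and by the probes of Asah1 are shown here. They are given as the first 30 of the 50 bases in lower case, because several results turn on which end of a transcript was read. Asah1 was not named by rank but singled out after its values were seen. Positions come from the array's own annotation, which names no genome build.
Rps15a, chr7:125247949-125247998, minus strand: ccttttcattcaacctctcctatgtgctct
6330503K22Rik, first probe, chr7:125880065-125880114, plus strand: aggtccaggttacaaagttctcctcatagg
6330503K22Rik, second probe, chr7:125880160-125880209, plus strand: caggactccgtgtgtatcagtgtgggctcc
Atp8a1, chr5:68021938-68021987, minus strand: gaagttcaggagcttgaggcgaaatctcaa
Ccng2, chr5:93704893-93704942, plus strand: ccagtgtttgtagtgttagtttaaagcaat
Asah1, upstream probe, chr8:42459921-42459970, minus strand: agtccctcggagcggcgcttgcagctggga
Asah1, downstream probe, chr8:42426290-42426339, minus strand: ctctttttcctagttattctgcctgccagt

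The lowest p in the cortex belonged to Rps15a, a gene for a protein of the small ribosomal subunit. Its signal was 1.02, 1.05 and 1.08 after AMI and 2.92, 2.19 and 2.38 after vehicle. The AMI arrays nearly coincided and lay below every vehicle array, a difference of -1.45 (SE 0.17, 2.73-fold, adjusted p = 0.153 in limma). The probe starts 5025 bases into its annotated transcript, and of 53 tested genes of the cytosolic ribosome, Rps15a alone had an unadjusted p of at most 0.05 with all arrays in the fit. Without vehicle replicate 3, 21 of the 53 were lower at that p. 6330503K22Rik is annotated in the same cytogenetic band as Rps15a and was treated as a possible match for Cep110, which the study names. This transcript had the next largest negative difference. Its first probe gave 0.69, 0.84 and 0.54 after AMI and 2.08, 1.41 and 1.49 after vehicle, a difference of -0.97 (SE 0.18). Its second probe, which starts at base 4636 of the same transcript against base 4541 for the first, gave 2.28, 2.42 and 2.23 after AMI and 2.29, 2.24 and 2.34 after vehicle. The groups were thus apart at one probe and overlapped at its neighbour, where the difference was 0.02 (SE 0.09).

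Atp8a1, which encodes a flippase that moves phosphatidylserine to the inner leaflet of membranes, and Ccng2, which encodes the growth-inhibitory cyclin G2, led the transcripts with a higher signal and groups apart in both scalings. Atp8a1 was at 0.39, 0.83 and 0.34 after AMI and -0.64, -0.65 and -0.52 after vehicle. The lowest AMI array stood above the highest vehicle array, and the difference was 1.12 (SE 0.14, 2.18-fold, adjusted p = 0.153 in limma). Ccng2 was at 0.18, 0.83 and 0.38 after AMI and -0.72, -0.67 and -0.66 after vehicle. Its 3 vehicle arrays were close together below all AMI arrays, with a difference of 1.15 (SE 0.15, 2.22-fold, adjusted p = 0.225). Among these, Gdpd3, a lysophospholipase D gene, followed in size with 1.04, 1.47 and 1.20 after AMI and -0.57, 0.45 and 0.50 after vehicle, so that vehicle replicate 1 lay far below the other vehicle arrays (difference 1.11, SE 0.27, adjusted p = 0.756). Ccng2 was detected on 3 AMI and 2 vehicle arrays, and Atp8a1 on all 6. Their lowest signals, 86.1 and 88.8, were near the medians of undetected probes, 65.1 to 73.2 by array. The intensities were not background-subtracted, so the vehicle values of both genes lie near the floor of the signal.

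In all, 27 genes were named by rank, of which 14 were higher after AMI and 13 lower. They have the smallest p or the largest difference among probes whose groups were apart in both scalings, so their separation is how they were chosen. Absolute differences ran from 0.37 to 1.45, and 24 of the 27 had an adjusted p of 0.756 in limma. All 27 kept their direction with each array left out in turn, which their separation fixes in advance.

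**Figure D1:**
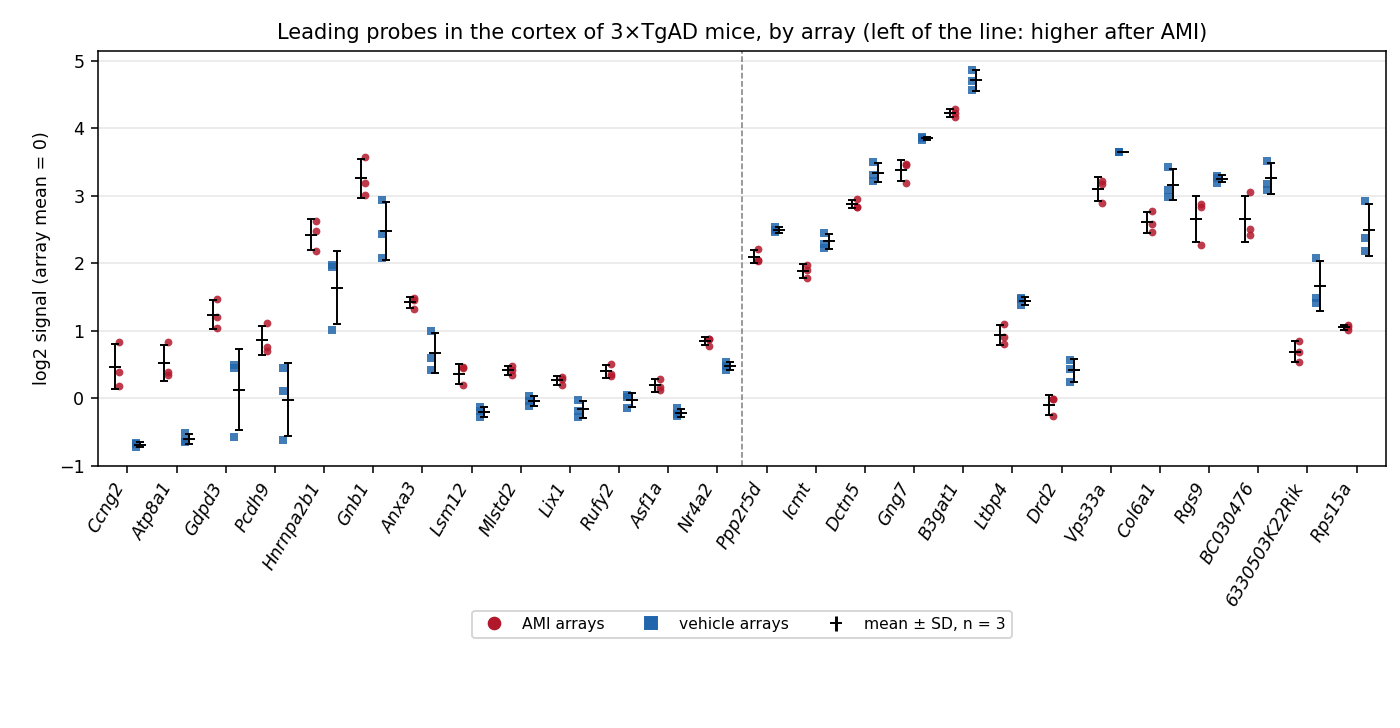
Log2 signal (array mean = 0) of 26 of the 27 genes with the smallest p or largest difference, per array, with red circles for AMI, blue squares for vehicle and black bars for mean ± SD (n = 3). Genes left of the dashed line were higher after AMI and those right of it lower. The groups do not overlap for any of them, which is how they were selected. Rps15a and Ccng2 each have a group whose 3 arrays nearly coincide, and that of Ccng2 lies near the floor of the signal.

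Among the other genes with a higher signal were several with known roles in membranes and trafficking. Anxa3, which encodes a calcium-dependent membrane-binding annexin, was at 1.32, 1.46 and 1.48 after AMI and 0.60, 0.42 and 0.99 after vehicle (difference 0.75, SE 0.14). Its groups were also apart at a second probe, with a difference of 0.54. Rufy2, an endosomal adaptor, was at 0.51, 0.35 and 0.33 against 0.04, -0.14 and 0.02, with a difference of 0.42 (SE 0.10). Pcdh9 encodes a neuronal protocadherin and Gnb1 a β subunit of heterotrimeric G proteins. Gnb1 was at 3.58, 3.19 and 3.01 after AMI and 2.94, 2.07 and 2.43 after vehicle, a difference of 0.78 (SE 0.22), and Pcdh9 differed by 0.88 (SE 0.25). For both, vehicle replicate 2 was the lowest array.

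The higher group also held genes with nuclear or RNA-handling roles. Asf1a, a histone chaperone gene, was at 0.11, 0.29 and 0.16 after AMI and -0.26, -0.15 and -0.23 after vehicle, with a difference of 0.40 (SE 0.09). Nr4a2, an orphan nuclear receptor gene induced by neuronal activity, was at 0.88, 0.88 and 0.78 against 0.42, 0.48 and 0.54. Its groups did not overlap and differed by 0.37 (SE 0.09), and it was the single gene of 15 tested immediate early genes with an unadjusted p of at most 0.05. Hnrnpa2b1, an RNA-binding protein gene, differed by 0.78 (SE 0.25) and Lsm12 by 0.57 (SE 0.10).

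Among the genes with a lower signal, Drd2, Rgs9 and Gng7 belong to dopamine and G protein signalling. The dopamine receptor gene Drd2 was at -0.01, -0.02 and -0.27 after AMI and 0.57, 0.43 and 0.23 after vehicle, a difference of -0.51 (SE 0.12). Rgs9, which encodes a regulator that ends dopamine receptor signalling, was at 2.87, 2.27 and 2.83 against 3.19, 3.27 and 3.29 (difference -0.59, SE 0.16). Gng7, the G protein γ subunit that partners the striatal adenylyl cyclase pathway, was at 3.47, 3.20 and 3.46 against 3.85, 3.83 and 3.88 (difference -0.48, SE 0.10). In Rgs9 and Gng7 the vehicle arrays were tight and AMI replicate 2 was the lowest of all.

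These 3 genes are strongly expressed in the striatum, which lies beneath the cortex. Of 10 listed striatal markers 7 were tested, of which 2 were higher and 5 lower, and their median difference was -0.22 against 0.01 over all tested genes. Drd2 and Rgs9 had an unadjusted p of at most 0.05, and Ppp1r1b (-0.30, SE 0.19) and Drd1a (-0.22, SE 0.16) did not. The summed level of the 7 markers was 23.4 to 32.6 after AMI and 34.3 to 37.2 after vehicle, on the linear scale in units of the array's geometric mean. Drd2 and Rgs9, which were named because their groups were apart, are part of this sum. The separation of the sum is therefore not independent of that choice. The part of this sum in the lower values of Drd2, Rgs9 and Gng7 was not tested. AMI replicate 2 had the lowest striatal sum (23.4), and the other AMI arrays were at 32.6 and 31.2. It also had the lowest sums of neurons (152.9), astrocytes (113.9) and oligodendrocytes (175.6), but not of the other cell types listed. Its log2 signal had the widest spread (SD 1.68 against 1.42 to 1.53), and the part of this spread in the sums was not tested.

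Other lower transcripts had roles in the matrix, the membrane and transport. Col6a1, a collagen VI chain, was at 2.46, 2.77 and 2.58 after AMI and 3.08, 3.43 and 2.99 after vehicle (difference -0.56, SE 0.14), whereas its other probe overlapped between groups (-0.28). Ltbp4, which binds latent TGF-β in the matrix, was at 0.80, 1.1 and 0.91 against 1.49, 1.37 and 1.47 (difference -0.51, SE 0.10). Its groups were apart at both other probes as well, by -0.30 and -0.22. Vps33a, a subunit of the complexes that tether endosomes to lysosomes, was at 3.18, 2.89 and 3.22 against 3.65, 3.65 and 3.65, a difference of -0.56 (SE 0.11). B3gat1, which makes the HNK-1 carbohydrate of neural cell adhesion molecules, differed by -0.49 (SE 0.10) and by -0.42 at a neighbouring probe, but by -0.05 at a probe further upstream. Icmt, the enzyme that methylates prenylated proteins, differed by -0.44 (SE 0.10).

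Where on its transcript a probe lay went with the direction of the difference. Probes with a separated higher signal started at a median of 1398 bases from the annotated 5′ end, and those with a separated lower signal at 2713, against 1893 over all tested probes. Probes starting within the first 300 bases had a median difference of 0.10, with 16.9% of them wholly higher and 0.557% wholly lower after AMI. Probes starting beyond 5000 bases had a median of -0.02, with 4.37% wholly higher and 6.68% wholly lower. The slope was kept after quantile normalization, with medians of 0.07 and -0.04. Single arrays did not line up by treatment, since vehicle replicate 1 followed AMI replicate 1 in most of the range and vehicle replicate 3 ran the other way.

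**Figure D2:**
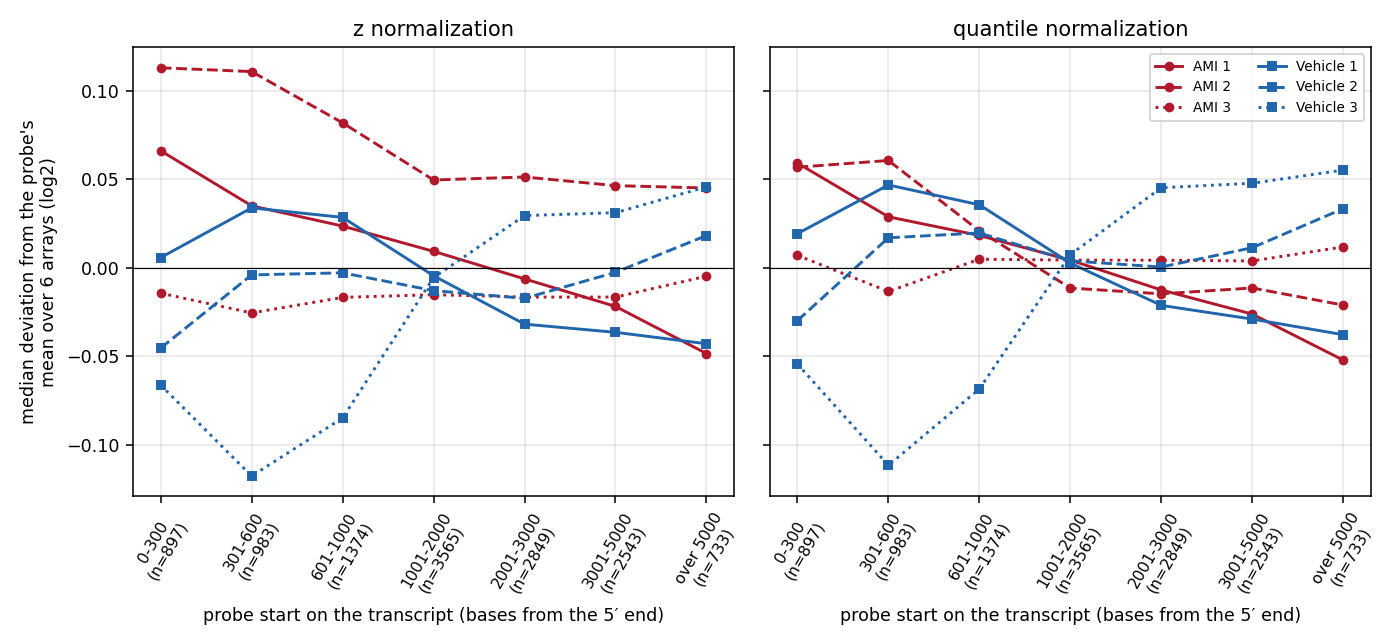
Median deviation of each cortical array from the mean of the 6 arrays (log2), by where the probe starts on its transcript, after z normalization (left) and quantile normalization (right). Red lines are AMI and blue lines vehicle replicates, and n is the number of probes in a bin. Vehicle replicate 3 is lowest between bases 300 and 600 and among the highest beyond 5000, and AMI replicate 1 runs the opposite way.

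Within transcripts the same slope appeared. In 867 transcripts with tested probes 500 or more bases apart, the 5′ probe had the higher difference in 669 (77.2%), with a median gap of 0.12 (0.10 after quantile normalization). By array, the median of the 5′ minus 3′ signal, relative to its mean over the arrays, was 0.11, 0.04 and 0.02 after AMI and -0.05, -0.15 and 0.02 after vehicle. The groups were nearly in contact at AMI replicate 3 and vehicle replicate 3, and they overlapped after quantile normalization, with AMI replicate 2 at 0.01 and vehicle replicate 3 at 0.02. Vehicle replicate 2 was the lowest in both scalings. The RNA of both groups was primed from the poly(A) tail, and the part of RNA length or amplification in this slope was not tested.

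Single genes illustrate the slope, and some were picked for it. Asah1, the acid ceramidase gene, singled out after its values were seen, was at 0.44, 0.29 and 0.43 against -0.07, -0.46 and 0.06 at base 11 (difference 0.54, SE 0.14) and overlapped at base 1838 (difference 0.06, SE 0.14). Kif5a, a neuronal kinesin heavy chain gene likewise singled out, differed by 0.46 and 0.34 at bases 3167 and 3243 and by -0.37 at base 5738, with groups apart at each. Lsm12 differed by 0.57 at base 48 and by 0.15 at base 640. Other genes did not follow the slope, such as 6330503K22Rik, with -0.97 at base 4541 and 0.02 at base 4636, and Ntrk2, with -0.05 at base 1848 and 0.04 at base 4057. Of the 27 ranked genes, those with a higher signal were read at a median of 963.5 bases from the 5′ end and those with a lower signal at 3270. When each array was centred on the median of its probes in each class of start position, all 27 kept groups that did not overlap, and the counts of separated probes became 789 higher and 692 lower. This centring reduced the slope but did not remove it. The 5′ probe still had the higher difference in 614 of the 867 transcripts (70.8%), with a median gap of 0.09. The 27 were chosen for separated groups, so that they stayed apart is not independent of that choice.

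Functional groups were described with 1 probe per gene, that with the highest mean signal. Over all 9802 tested genes by this measure, 3.25% had a higher and 2.14% a lower signal after AMI at an unadjusted p of at most 0.05, 6.75% and 4.38% had groups apart in these directions, and the median difference was 0.01. No member of any list passed an adjusted p under 0.05 in limma. Of the 9802 genes, 13 were detected on AMI arrays alone and 20 on vehicle arrays alone. Without vehicle replicate 3, 738 genes were higher and 633 lower at an unadjusted p of at most 0.05, against 319 and 210 with all arrays, so that counts in the lists depended on this array too. In that fit the higher and lower counts were 4 and 0 for GABA receptors, 2 and 4 for presynaptic genes, 5 and 9 for motor proteins, 5 and 3 for potassium channels, 3 and 5 for calcium and sodium channels, and 4 and 4 for phosphodiesterases and diacylglycerol kinases. They were 0 and 3 for histone deacetylases, 0 and 2 for striatal markers, 0 and 4 for interneuron markers, 4 and 0 for vascular markers, 4 and 1 for ubiquitin-conjugating enzymes and 1 and 4 for the proteasome.

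The receptors and transporters that AMI itself binds were mostly near or below detection in the cortex. Of 22 listed targets 9 were tested, and the transporter genes Slc6a4 and Slc6a2 were detected on 0 arrays. Both are known from serotonergic and noradrenergic neurons, whose cell bodies lie in the brainstem. The serotonin 1A receptor gene Htr1a was at 0.61, 0.81 and 0.45 after AMI and 0.22, 0.37 and 0.44 after vehicle, so that the groups were just apart (difference 0.28, SE 0.12), and it was the one target with an unadjusted p of at most 0.05. The histamine receptor gene Hrh1 (0.19, SE 0.10), the serotonin receptor gene Htr2c (0.18, SE 0.10) and the muscarinic receptor gene Chrm2 (0.14, SE 0.08) had unadjusted p above 0.05. Chrm2 was detected on 3 AMI and 0 vehicle arrays, so it was tested only through the AMI group. Hrh1 was detected on 3 AMI and 1 vehicle arrays, and Htr2c on 2 and 1. With Chrm2, 7 of the 9 tested targets were higher and 2 lower, against 5327 and 4475 of all 9802 tested genes. Their median difference was 0.10, and 0.05 after quantile normalization with the same counts of targets.

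Of the 19 tested genes of neurotrophin signalling, 0 had an unadjusted p of at most 0.05, 7 were higher and 12 lower, and the median difference was -0.02. Bdnf, the neurotrophin gene, and Ntrk2, the gene of its receptor TrkB, stand outside the naming rule and are given because they belong to the question of the study. Bdnf was at 0.97, 1.41 and 0.81 after AMI and 0.89, 1.29 and 0.77 after vehicle, with a difference of 0.07 and a 95% confidence interval of -0.34 to 0.49. Ntrk2 was at 3.65, 3.33 and 3.48 against 3.46, 3.34 and 3.83 (-0.05, interval -0.38 to 0.28). In both genes the groups overlapped.

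GABA receptor subunits had the highest median of the 40 lists, 0.19, and 0.20 after quantile normalization. Of 8 tested subunits 3 had a higher signal at an unadjusted p of at most 0.05 and 0 a lower one. The β2 subunit gene Gabrb2 was at 0.63, 0.45 and 0.18 after AMI and 0.09, -0.38 and 0.09 after vehicle (difference 0.49, SE 0.16). The α3 subunit gene Gabra3 was at 1.19, 1.16 and 1.21 against 0.86, 0.38 and 1.11 (difference 0.40, SE 0.17). For both, vehicle replicate 2 lay far below the other vehicle arrays. By array, the median deviation of the list from the mean of the 6 arrays was 0.17, 0.03 and 0.0002 after AMI. After vehicle it was -0.11, -0.27 and 0.07, so the groups overlapped. Without vehicle replicate 3, the highest vehicle array by this measure, the median difference of the list was 0.31.

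Of 20 tested postsynaptic density genes, 1 had a higher and 5 a lower signal at an unadjusted p of at most 0.05, and the median difference was -0.17. The lower count was 3 after quantile normalization, with 8 higher and 12 lower members in all, and 10 without vehicle replicate 3. Dbn1, which encodes the spine actin protein drebrin, was at 1.04, 0.98 and 0.93 after AMI and 1.23, 1.56 and 1.38 after vehicle (difference -0.40, SE 0.11). Caskin1, a scaffold gene, was at 2.51, 2.63 and 2.79 against 2.97, 3.07 and 3.07 (difference -0.39, SE 0.10), with -0.15 and -0.09 at its other probes. The spinophilin gene Ppp1r9b (-0.33, SE 0.13), the AMPA receptor-binding Grip1 (-0.27, SE 0.11) and the kinase gene Camk2a (-0.26, SE 0.11) followed, and Ppp1r9b and Grip1 had overlapping groups. The other probe of Camk2a differed by 0.16 and that of Grip1 by -0.05, both with overlapping groups. Dlgap1, a scaffold that links PSD-95 to Shank proteins, ran opposite, at 0.28, 0.17 and 0.35 against -0.10, -0.48 and 0.01 (difference 0.45, SE 0.13). Dlg4, the PSD-95 gene, was picked after its values were seen and differed by 0.28 (SE 0.15) with overlapping groups. Most of these probes lie far from the 5′ end, with a median start of 3577.5, where lower values were more frequent over all probes. Centred by start position, which left part of the slope over all probes, the median of the list stayed at -0.17.

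Of 12 tested glutamate receptor genes, the kainate receptor gene Grik5 had a lower signal, 1.48, 1.46 and 1.40 against 1.78, 2.23 and 1.80 (difference -0.49, SE 0.13), and the AMPA receptor gene Gria3 a higher one (0.34, SE 0.13). Among 25 presynaptic genes 2 had a lower signal at an unadjusted p of at most 0.05. The synapsin I gene Syn1 was at 5.38, 5.41 and 5.46 after AMI and 6.0, 5.97 and 5.59 after vehicle (difference -0.43, SE 0.12), and -0.24 after quantile normalization. Its other probe, at base 3036 against base 2933, overlapped between groups (-0.07, SE 0.17). Rph3a, which encodes the vesicle protein rabphilin, was at 2.16, 2.34 and 1.78 against 2.71, 2.76 and 2.36 (difference -0.52, SE 0.16). The synaptophysin gene Syp overlapped between groups (-0.37, SE 0.18). The median of the presynaptic list was -0.09, and 0.01 after quantile normalization, so its direction rested on the scaling.

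**Figure D3:**
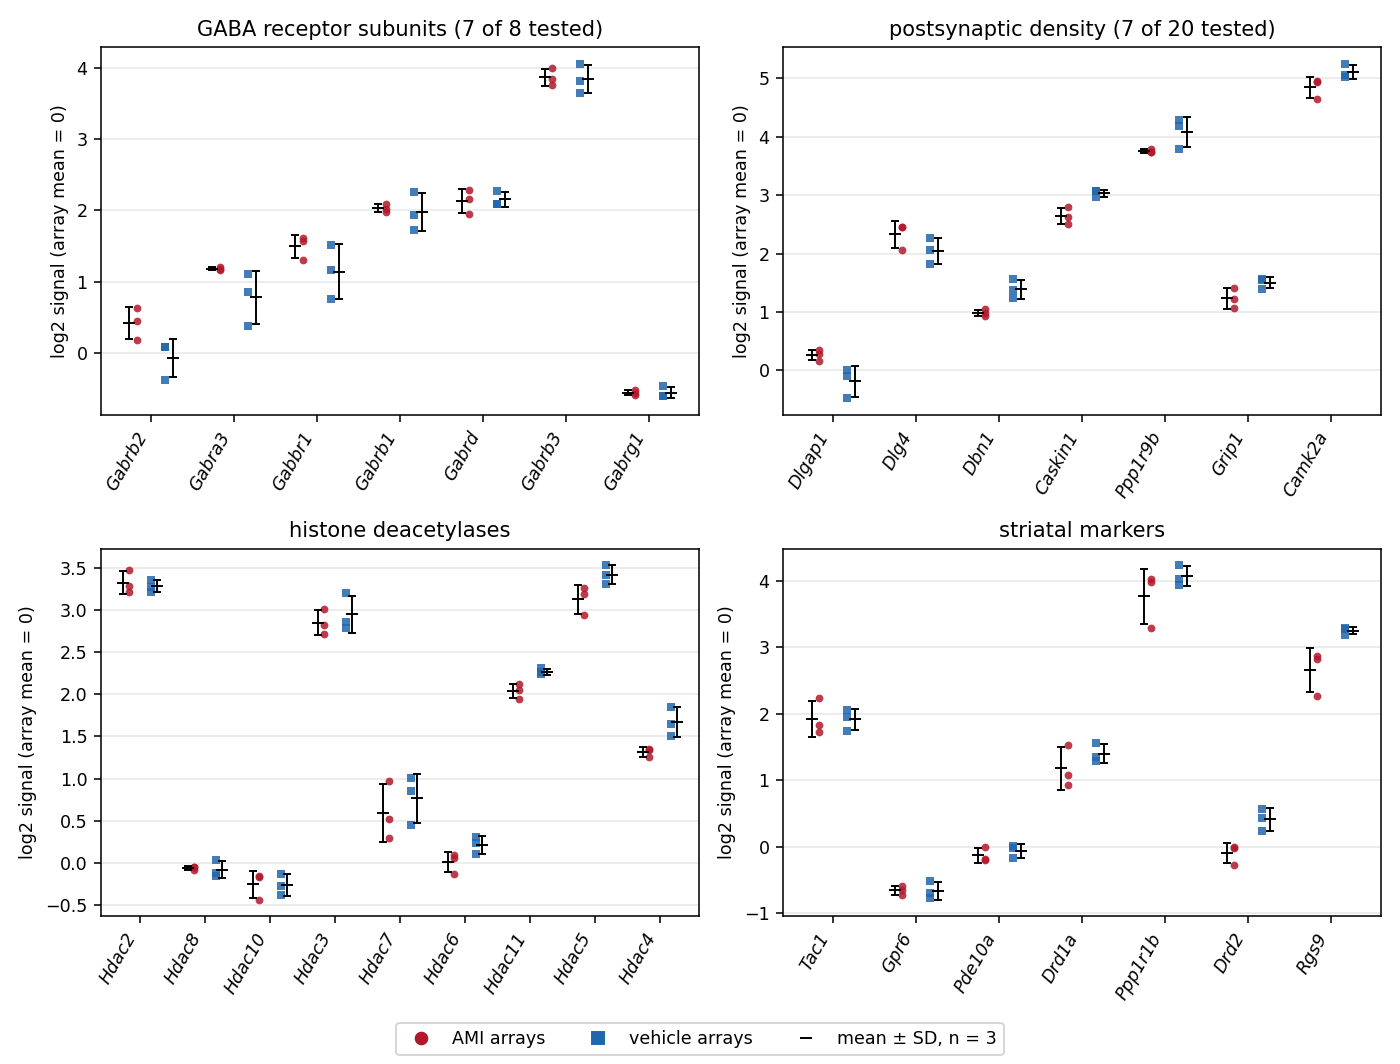
Log2 signal (array mean = 0) of 7 of 8 tested GABA receptor subunits, 7 of 20 tested postsynaptic density genes, all tested histone deacetylases and all tested striatal markers, per array, with red circles for AMI, blue squares for vehicle and bars for mean ± SD (n = 3). Gabrb2 and Gabra3 lie higher after AMI, and Dbn1, Caskin1, Hdac4, Hdac11, Drd2 and Rgs9 lie lower, each with groups that do not overlap.

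Ion channels went both ways. Of 51 tested potassium channel genes, 2 had a higher and 1 a lower signal at an unadjusted p of at most 0.05. Kcna1, an axonal delayed rectifier gene, differed by 0.41 (SE 0.13) and Kcnh5 by 0.30 (SE 0.09), although Kcnh5 was detected on 3 AMI and 0 vehicle arrays and so was tested only through the group where it was high. The related Kcnh3 was lower by that measure (-0.48, SE 0.15), at 1.68, 1.85 and 1.56 against 2.08, 2.49 and 1.95. Of 24 calcium and sodium channel genes, Cacng7 (0.35, SE 0.12) and Scn1a (0.31, SE 0.12) were higher and Cacng4 (-0.41, SE 0.11) and Cacna1h (-0.28, SE 0.09) lower at that p. Cacng4 and Cacng7 encode members of one family of AMPA receptor auxiliary subunits and had opposite directions, each with groups apart. The Cacng7 probe starts at base 505, and centred by start position its groups overlapped (difference 0.28).

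Second messenger enzymes had more lower than higher members at that p. Of 20 tested phosphodiesterase and diacylglycerol kinase genes 4 had a lower and 2 a higher signal. Pde1b, a calmodulin-dependent phosphodiesterase gene, was at 4.20, 3.99 and 4.29 after AMI and 4.59, 4.53 and 4.51 after vehicle (difference -0.38, SE 0.10). Dgkz differed by -0.34 (SE 0.10), with -0.29 and -0.24 at its other probes, Dgkg by -0.30 (SE 0.09) and Pde2a by -0.25 (SE 0.09). Pde7a (0.30, SE 0.11) and Dgke (0.31) were the higher members. Pde1b is, like Drd2 and Rgs9, abundant in the striatum, and the summed striatal level given above applies here with the same limits.

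Histone deacetylases, which remove acetyl groups from histones and other proteins, had a median difference of -0.17. Of 9 tested members 0 had a higher and 3 a lower signal at an unadjusted p of at most 0.05, and 4 had groups apart. Hdac4 was at 1.36, 1.34 and 1.25 after AMI and 1.65, 1.85 and 1.5 after vehicle (difference -0.35, SE 0.11). Hdac5, its close relative of class IIa, was at 2.94, 3.19 and 3.26 against 3.31, 3.42 and 3.53 (difference -0.29, SE 0.11), with -0.17 and -0.32 at its other probes. Hdac11 differed by -0.23 (SE 0.09) and Hdac6 by -0.21 (SE 0.10). The median was -0.23 after quantile normalization and -0.24 without vehicle replicate 3. Of 17 tested subunits of the BAF chromatin remodelling complex, Smarcc2 was the one with an unadjusted p of at most 0.05 (-0.23, SE 0.10).

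Motor proteins had 24 lower and 12 higher of 36 tested genes, with 5 lower and 1 higher at an unadjusted p of at most 0.05. After quantile normalization 21 were lower and 15 higher, with the same counts at that p and a median difference of -0.03. Dctn5, a dynactin subunit gene, was at 2.84, 2.95 and 2.84 after AMI and 3.50, 3.30 and 3.23 after vehicle (difference -0.47, SE 0.10). Kifc2 (-0.35, SE 0.10), Kif5a (-0.37, SE 0.13) and the dynein heavy chain gene Dync1h1 (-0.33, SE 0.11) were also lower, although Kif5a was higher at its upstream probes, as given above, and Kifc2 differed by 0.05 at its other probe. Dynll2, a dynein light chain gene, was higher, at 2.88, 2.72 and 3.09 against 2.56, 1.72 and 2.50 (difference 0.64, SE 0.21).

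Rab GTPases, the switches of vesicle traffic, had 4 higher and 0 lower of 46 tested genes at an unadjusted p of at most 0.05, and 6 with groups apart higher. Rab11a, of recycling endosomes, was at 0.72, 0.82 and 0.58 after AMI and 0.17, 0.14 and 0.42 after vehicle (difference 0.46, SE 0.11). Rab3b, of synaptic vesicles, was at 0.90, 0.59 and 0.33 against 0.23, 0.19 and 0.17 (difference 0.41, SE 0.14). Rab9, of the route from late endosomes to the Golgi, differed by 0.28 (SE 0.09) and Rab12 by 0.46 (SE 0.17). The counts were 4 higher and 2 lower after quantile normalization, 2 and 0 centred by start position, and 9 and 0 without vehicle replicate 3. The median of the family was 0.02.

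Of 38 tested lysosomal genes, Gaa, the acid α-glucosidase gene, was the one with an unadjusted p of at most 0.05, at 3.54, 3.44 and 3.52 against 3.71, 3.80 and 3.80 (difference -0.27, SE 0.08). Smpd1, the acid sphingomyelinase gene, differed by -0.13 (SE 0.09), with 0.10 and 0.12 at its other probes. Of 20 sphingolipid enzymes Sphk1, a sphingosine kinase gene, was the one with an unadjusted p of at most 0.05, at 0.97, 0.80 and 1.06 after AMI and 0.48, 0.21 and 0.66 after vehicle (difference 0.49, SE 0.13). Of 18 tested genes of cholesterol synthesis and uptake 0 reached that p, the smallest being that of Nsdhl (0.33, SE 0.15). Of 18 subunits of the proton pump that acidifies lysosomes and vesicles, Atp6v0a2 (0.33, SE 0.12) and Atp6v0e (0.22, SE 0.09) were higher and Atp6v0a1, the form most abundant in neurons, lower (-0.28, SE 0.10) at that p. The groups of Atp6v0a1 overlapped after quantile normalization (-0.18) and at its other probe (-0.20). In that scaling 1 pump gene was higher and 0 lower at that p. The median of the pump was -0.07, and 0.08 after quantile normalization.

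Protein turnover had 3 higher and 0 lower of 21 tested ubiquitin-conjugating enzymes at an unadjusted p of at most 0.05. Ube2k was at 2.69, 2.67 and 2.65 after AMI and 2.54, 2.34 and 2.27 after vehicle (difference 0.29, SE 0.10), and Ube2d3 (0.32, SE 0.11) and Ube2e3 (0.32, SE 0.11) were alike in size. The Ube2k and Ube2e3 probes start at bases 461 and 4, and centred by start position their differences were 0.22 each. Of 38 proteasome genes Psmd5 reached that p (0.38, SE 0.11), and of 22 chaperone genes Dnajb9 (0.34, SE 0.10) and Pdia3 (0.30, SE 0.10), both of the endoplasmic reticulum, were higher.

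The protein-making and respiratory machinery gave no shared direction that held across scalings. The cytosolic ribosome (53 genes) had a median of -0.06 with z normalization, 0.03 after quantile normalization and -0.13 centred by start position. For oxidative phosphorylation (69 genes) these were -0.03, 0.04 and -0.10, with Uqcrc1, a core subunit of complex III, as the one gene at an unadjusted p of at most 0.05 (-0.26, SE 0.08). The mitochondrial ribosome (67 genes) had 42 higher and 25 lower members, 6 with groups apart higher and 0 lower, and medians of 0.04, 0.03 and -0.02. Without vehicle replicate 3 the z-normalized medians of these lists were -0.20, -0.20 and -0.08, and 21 of 53, 26 of 69 and 8 of 67 genes were lower at an unadjusted p of at most 0.05, with 0, 2 and 1 higher.

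**Figure D4:**
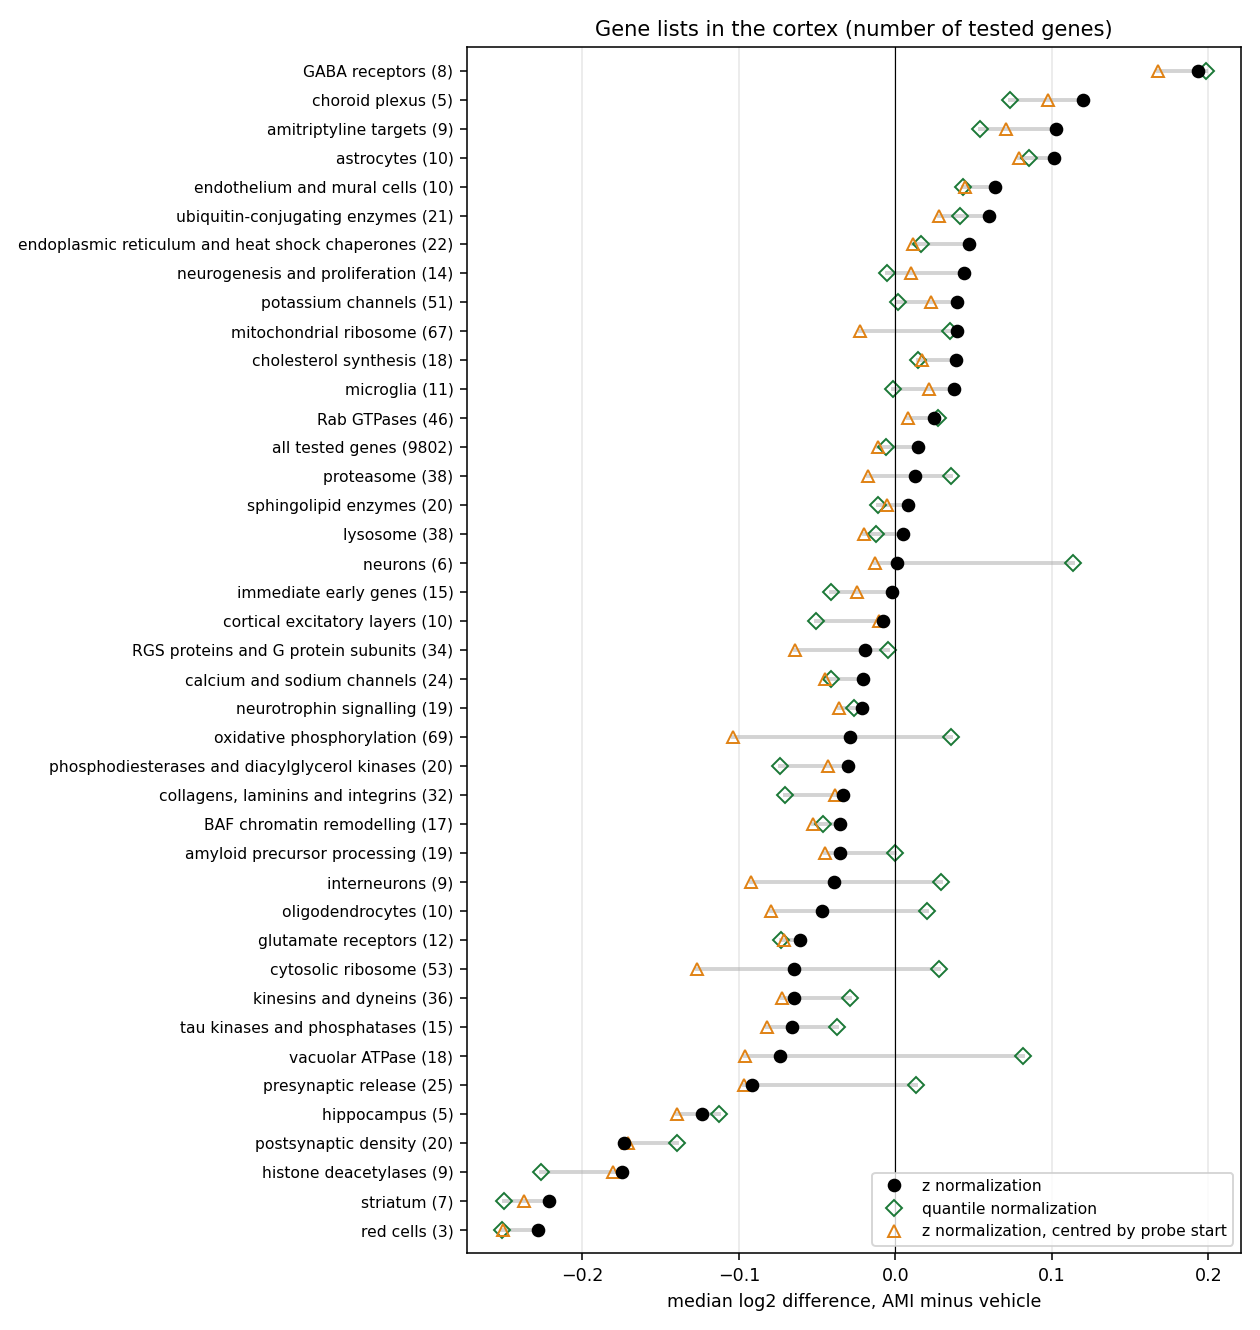
Median log2 difference (AMI minus vehicle) of 40 gene lists and of all tested genes, with the number of tested genes in brackets. Filled circles are z-normalized values, diamonds quantile-normalized values and triangles z-normalized values centred by probe start. GABA receptors stand highest, and striatal markers, histone deacetylases and postsynaptic density genes keep negative medians in all 3, while ribosomal, respiratory, presynaptic and proton pump genes cross 0.

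Genes tied to the pathology of the model had few members at that p. Of 19 tested genes of amyloid precursor processing, Ece1, an enzyme that degrades amyloid peptide, was lower at an unadjusted p of at most 0.05 (-0.26, SE 0.10), and Aph1b, a γ-secretase subunit gene, differed by 0.18. App was at 5.22, 4.84 and 5.51 after AMI and 5.09, 5.10 and 5.54 after vehicle, with a difference of -0.05 and an interval of -0.48 to 0.37. Of 15 tau kinases and phosphatases Ppp2r5d, a regulatory subunit of the tau phosphatase PP2A, was at 2.05, 2.03 and 2.21 against 2.54, 2.49 and 2.46 (difference -0.40, SE 0.09). Its upstream probes at bases 317 and 1558 overlapped between groups (0.15 and 0.05). The tau gene Mapt differed by -0.19 (SE 0.11) with overlapping groups, and by -0.08, 0.06 and 0.08 at its other tested probes. Of 14 tested genes of neurogenesis and proliferation Elavl2, a neuronal RNA-binding protein gene, had an unadjusted p of at most 0.05 (0.34, SE 0.11), and Dcx, of migrating neuroblasts, was at 0.94, 1.12 and 0.96 against 0.66, 0.92 and 0.86, just apart (0.19, SE 0.10).

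Markers of the main cell types were checked in the same way. Neurons, excitatory layers, interneurons, oligodendrocytes and microglia had 0 genes reaching an unadjusted p of 0.05, with medians of -0.05 to 0.04. Slc17a7, the vesicular glutamate transporter gene of cortical projection neurons, was at 4.36, 4.45 and 4.04 after AMI and 4.94, 5.01 and 4.04 after vehicle, so that vehicle replicate 3 lay level with the lowest AMI array (difference -0.38, SE 0.24). The summed level of the 10 tested excitatory layer markers was 53.1 to 55.7 after AMI and 56.6 to 65.7 after vehicle. This linear sum gives most weight to bright probes such as that of Slc17a7, whose share was not tested. By gene, 5 of the 10 were higher and 5 lower, with a median difference of -0.01. Among astrocyte genes Fgfr3 was higher (0.48, SE 0.21) and among vascular genes Ly6c1 (0.30, SE 0.11), at 2.51, 2.41 and 2.44 against 2.02, 2.06 and 2.38. The Ly6c1 probe starts at base 292, and centred by start position its groups overlapped (difference 0.21). In that setting 0 astrocyte and 0 vascular genes were higher at an unadjusted p of at most 0.05 in limma. The haemoglobin gene Hba-a1 was at 4.73, 5.29 and 4.57 against 4.88, 5.47 and 5.55, overlapping between groups. Of 32 collagen, laminin and integrin genes, Col6a1 and the basement membrane gene Col4a2 (-0.35, SE 0.11) were lower at that p.

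The hippocampal arrays, z-normalized together with the cortical ones, show where the cortical values stood apart. Of 12430 probes tested in both tissues, 0 had a tissue by treatment interaction at an adjusted p under 0.05 in limma (0%), and 377 had an unadjusted p of at most 0.05 (3.03%). Of the 27 cortical genes named by rank, 19 had a hippocampal difference of the same sign and 26 one of smaller size, in a set chosen for large cortical differences. Rps15a (-1.18, SE 0.21), Ccng2 (0.90, SE 0.43) and Gdpd3 (1.03, SE 0.44) had hippocampal differences near those of the cortex. The labels do not say whether hippocampal and cortical samples came from the same animals, and the interaction fit treated all arrays as independent. Likeness between the tissues may therefore not be a separate replication. Rps15a and 6330503K22Rik are annotated to band 7qF2 and Gdpd3 to 7qF3, and whether this position plays a part was not tested. Atp8a1 differed by 0.21 (SE 0.19) in the hippocampus, and its interaction had an unadjusted p of 0.00359 and an adjusted p of 1 in limma. Nr4a2 differed by -0.26 (SE 0.10) and Col6a1 by 0.41 (SE 0.21), opposite to their cortical values, with interaction p of 0.000601 and 0.00504 before and 1 after adjustment in limma. Since these genes were picked on their cortical difference, their interaction p is not independent of that choice.

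**Figure D5:**
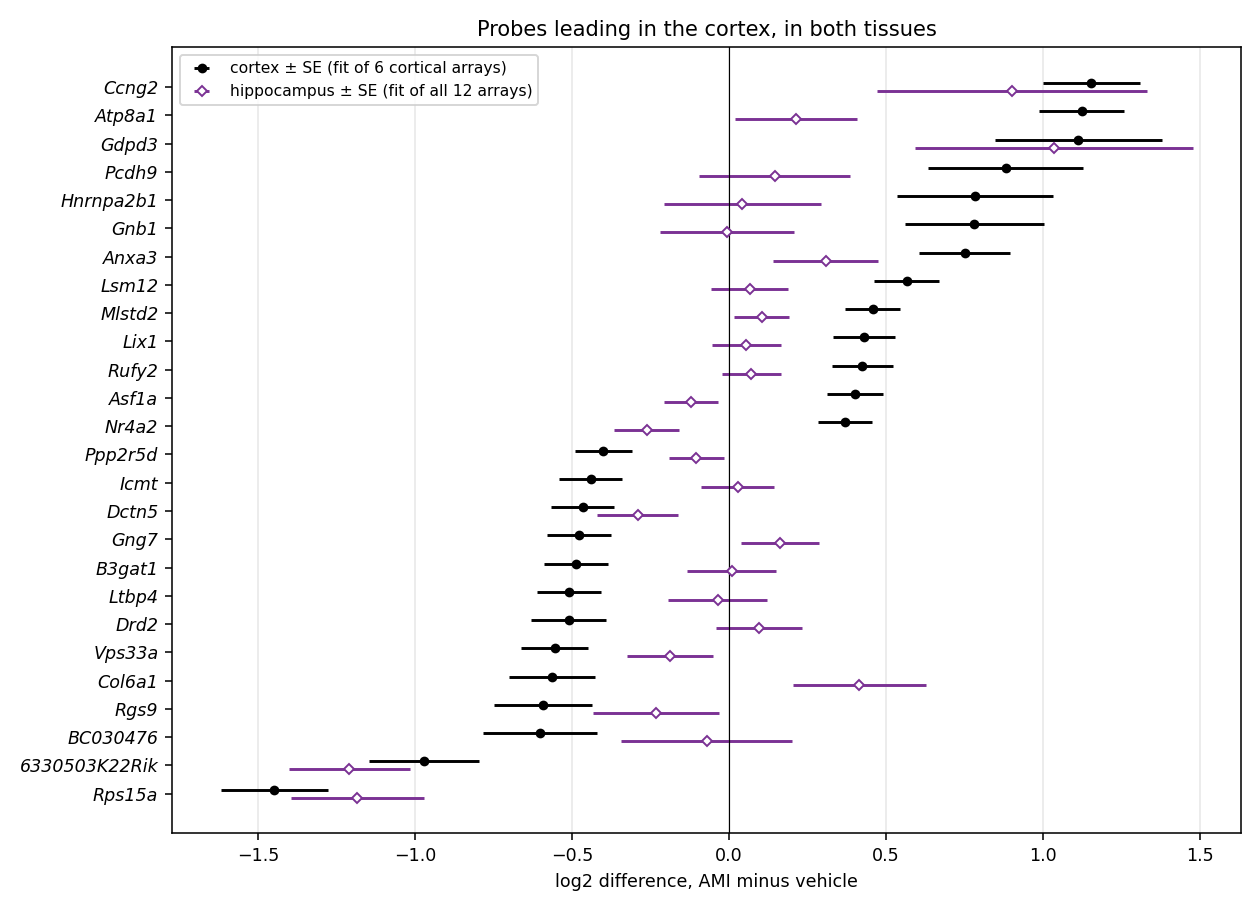
Log2 difference (AMI minus vehicle) of 26 of the 27 genes named by rank in the cortex (black circles, fit of the 6 cortical arrays) and the same probes in the hippocampus (open diamonds, fit of all 12 arrays), with bars of 1 SE. Rps15a, 6330503K22Rik, Ccng2 and Gdpd3 lie close in both tissues, and most other genes lie nearer 0 in the hippocampus. The tissues may come from the same animals.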

How the data were processed

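Cortical RNA of 3 AMI-treated and 3 vehicle-treated 3×TgAD mice was hybridised to 1-colour Illumina Mouse Ref-8 BeadChips. The labels do not say which animal gave which sample, so p-values measure the spread between these samples. The authors deposited per probe a mean bead intensity, neither normalized nor background-subtracted, together with a detection p-value. The same 2 values per array were deposited for the hippocampus. Array positions carry no named genome build.

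Intensities were log2-transformed, z-normalized per array and rescaled by the average array SD. Groups were compared with limma 3.58.1 (R 4.3.3, lmFit and eBayes, unpaired, two-sided), with Benjamini-Hochberg adjustment over 12944 probes. The z ratio is a difference divided by the SD of the differences over all probes. The code was tested on simulated data. Lists used the brightest probe per gene. Genes were named if among the 10 smallest p or 6 largest differences per direction with groups apart in both scalings, among the 4 smallest p of a list, or as named by the study. Asah1, Bdnf, Ntrk2, App, Mapt, Kif5a, Grip1, Pde7a, Dgke and Dlg4 were added after their values were seen. Some items counted in the totals are not reported here. Members and lists were chosen with earlier results of these data known. Deviations of same-numbered samples correlated at -0.06, 0.33 and 0.33, so the numbers were not taken as pairs.

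Alternatives were quantile and median scaling, normexp background correction with quantile scaling, other probe filters, a trended prior, array weights, a fit of both tissues, a replicate block, the methods' t-test, each array left out, and centring by probe start, chosen after seeing the data.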

Additional observations from a re-analysis of the deposited data

How the results depend on the processing

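Of 1750 values of the 98 genes named with values, 1728 kept their direction and side of the threshold under the alternatives. The exceptions were Atp8a1, Ccng2 and Rps15a, which passed an adjusted p under 0.05 in limma in some of them, and 4 genes with small or variable differences. App turned to 0.082 after quantile normalization, 0.083 with normexp background correction, 0.11 after median centring, 0.018 with z normalization over tested probes, 0.083 with array weights, 0.12 without AMI replicate 2 and 0.096 without vehicle replicate 3, with -0.21 to 0.12 over the arrays left out. Bdnf turned to -0.033 with array weights, -0.099 without AMI replicate 2 and -0.032 without vehicle replicate 3 (-0.099 to 0.23). Ntrk2 turned to 0.063 after median centring, 0.14 with array weights, 0.028 without AMI replicate 2 and 0.091 without vehicle replicate 3 (-0.15 to 0.091). Ttr turned to 1.26 without AMI replicate 1 and 0.38 without vehicle replicate 1 (-1.51 to 1.26). The adjusted p under 0.05 was passed by 2 probes each with normexp background correction (Atp8a1 and Ccng2), a trended prior (Atp8a1 and Rps15a) and array weights (Atp8a1 and Rps15a), and by 0 to 1 with an array left out (Pkig, without AMI replicate 3). The 3 genes past all cutoffs of the study became 0 after median centring, 1 with a detection filter on all arrays, 1562 with array weights, 5 with the replicate block, 0 with the methods' t-test and 0 to 1512 with an array left out. The value of 1512 arose without vehicle replicate 3, which also had the lowest array weight. Genes past the z ratio and p alone, 510 higher and 233 lower, became 337 higher with the filter on all arrays and 1008 with array weights. The lower ones became 422 after quantile normalization, 40 after median centring, 439 with normexp background correction, 366 with z normalization over tested probes, 450 without a filter, 573 with array weights and 361 with the replicate block. With an array left out these ran from 237 to 1047 higher and from 117 to 669 lower. Separated probes, 1048 higher and 535 lower, became 865 lower after quantile normalization and with normexp background correction, 216 after median centring, 856 with z normalization over tested probes and 1580 without a filter, and ran from 1423 to 2657 higher and 765 to 1682 lower with an array left out, where fewer arrays make separation easier. The causes of the other shifts were not tested. Of 560 list medians under alternatives 498 stayed within their spread, and 10 of 40 lists had another sign after quantile normalization. The small number of arrays limits the precision throughout.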
